A study of Mus musculus with 6 samples.

Results

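Chylomicrons are the large fat particles that the absorptive cells of the small intestine release into lymph. The 10 genes described here encode their proteins and the machinery that builds them: the apolipoproteins Apob, Apoa4, Apoa1, Apoc3, Apoc2 and Apoe, the assembly and export proteins Mttp, Sar1b and Pla2g12b, and the transcription factor Creb3l3. They were chosen by name for these roles, with earlier results of these data known. Each matched 1 Ensembl identifier among the 54446 in the count table. All 10 were among the 19176 genes with enough counts to be tested. RNA of mouse intestine was sequenced in 3 libraries of necrotizing enterocolitis (NEC) and 3 control libraries. NEC mice were gavaged every 4 h for 96 h with 40 µl of 33% Esbilac, a milk replacer, and were stressed every 12 h by 100 s of 99.9% nitrogen followed by 10 min at 4 °C. Control mice stayed with the dam and fed from it, without formula, hypoxia or cold. All libraries are labelled wild type and 96 h, and the labels speak of pups and give no strain, age, sex or segment of intestine. Feeding and stress were applied together, so their parts in a difference cannot be told apart.

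A chylomicron carries a single molecule of apoB, onto which the microsomal triglyceride transfer protein encoded by Mttp loads lipid in the endoplasmic reticulum. The GTPase SAR1B starts the coat of the vesicles that take the particle to the Golgi, and apoA-IV and apoA-I join its surface. ApoC-II activates lipoprotein lipase in the capillaries, apoC-III restrains that lipolysis, and apoE is bound by receptors that clear the remnant. In neonates fed on milk, which is rich in fat, enterocytes make these proteins in large amounts.

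Total counts were between 69441184 and 106304239 per library. Libraries carry 1 of 2 code prefixes in their labels, AG181028 for NEC replicate 1 and control replicate 3 and AG181017 for the other 4. As a check of the tissue, 8 epithelial markers were present in every library, with summed levels of 6793 to 8605 CPM (CPM here being counts over the TMM-scaled library size) in NEC and 7146 to 8469 CPM in control. Of 6 colon markers 2 were at 0 in every library, and the 6 summed to 140 to 171 CPM in NEC and 218 to 460.5 CPM in control. Hepatocyte markers summed to 890 to 1548 CPM in NEC and 1318 to 2127 CPM in control, mostly from Cps1, which enterocytes also express, at 587 ± 246 CPM in NEC and 1038 ± 321 CPM in control, and from Ttr. Within them Alb, the albumin gene, stood at 21.8 CPM in NEC replicate 1 and 25.9 CPM in control replicate 3, against at most 0.201 CPM in the other 4 libraries. Ahsg, Hpx and Mup3 were also highest in NEC replicate 1 and control replicate 3. Fga, Fgb, Fgg and Ttr were instead lowest in control replicate 3. Fga was at 1.17 CPM there, against 9.97 and 17.2 CPM in control replicates 1 and 2. Control replicates 1 and 2 held Xist at 179 and 344 CPM, against at most 1.17 CPM in the other 4 libraries. Ddx3y was lowest in control replicate 2, at 1.29 CPM, and stood at 19.8 CPM in control replicate 1. Control replicate 1 thus held both the female transcript Xist and the male transcript Ddx3y. The sexes may thus be unevenly split between the groups, and the part of sex in a difference was not tested.

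The 10 genes together took 10.3%, 7.12% and 13.9% of all counts in NEC replicates 1 to 3, against 13.2%, 7.55% and 14.4% in control replicates 1 to 3. Their mean share was 10.4% ± 3.39 in NEC and 11.7% ± 3.64 in control (SD, n = 3 each), a difference of -1.28 percentage points, smaller than the spread within either group. The difference turned on single libraries: it was 0.374 without NEC replicate 2, 0.0396 without control replicate 3, -0.525 without control replicate 1, -3.01 without NEC replicate 3 and -3.36 without control replicate 2. Within the AG181017 libraries it was 0.116. Replicate 2 was the lowest library in both groups. Apoa4 had the largest part, with 6.91%, 3.37% and 8.33% of the counts in NEC libraries against 8.07%, 3.38% and 10.4% in control libraries. Apoa1 added 2.35%, 2.81% and 4.07% in NEC libraries and 3.24%, 2.75% and 2.26% in control libraries. The other 8 genes held 1.02%, 0.945% and 1.48% in NEC libraries, against 1.91%, 1.42% and 1.66% in control libraries. Their mean share was 1.15% ± 0.293 in NEC and 1.67% ± 0.245 in control, and the groups overlapped only between NEC replicate 3 and control replicate 2.

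**Figure D1:**
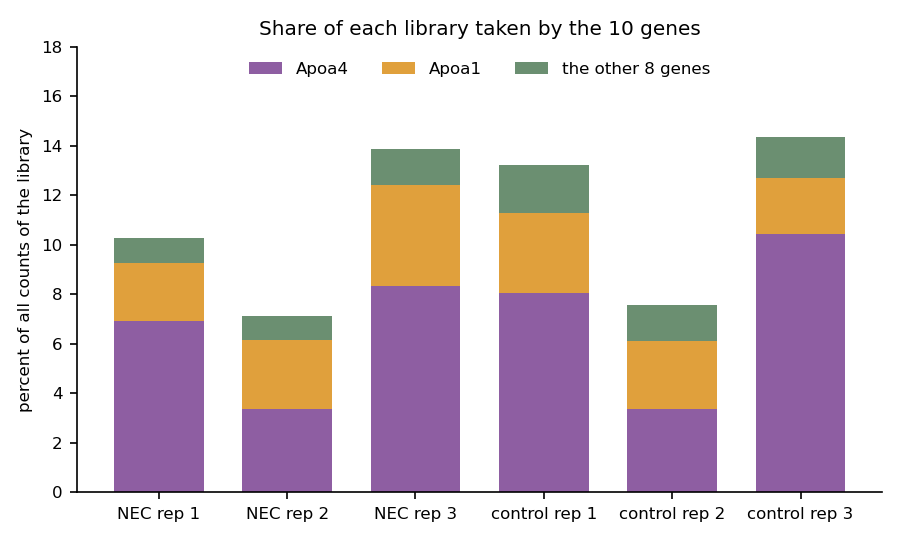
Percent of all counts taken by Apoa4, Apoa1 and the other 8 genes, stacked, in each of the 3 NEC libraries (left) and 3 control libraries (right). Apoa4 is the largest segment of every bar, and the whole bar runs from 7.12% to 13.9% in NEC and from 7.55% to 14.4% in control.

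None of the 10 genes passed the edgeR quasi-likelihood test with adjustment over all genes tested (0 of 10, against 0.704% of all genes). At an unadjusted p below 0.05 there was 1 of 10, Apob, against 15.6% of all genes. DESeq2 called 0 of 10, against 7.55% of all genes, and limma-voom also called 0 of 10. The share over all genes is not given here for limma-voom, so its 0 counts, also for the lists below, have no background beside them. Values lay above 0 for 5 genes and below 0 for 5, with a median log2 fold change of -0.067 against 0.026 over all genes tested. The groups did not overlap for 1 of 10 genes, again Apob, which was lower in NEC, against 22.4% of all genes in either direction and 11.6% lower in NEC. In simulated counts the same test found 2% of genes whose log2 change was 1 and 44% of those at 2, with 3 libraries a group. Those genes were drawn at random from all that passed the filter, so many changes of such sizes can be missed. They were not matched to the 10 genes in level or spread, so the shares do not say what was detectable for these 10. These are levels in whole tissue RNA, in which fewer enterocytes and less RNA per enterocyte cannot be told apart.

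**Figure D2:**
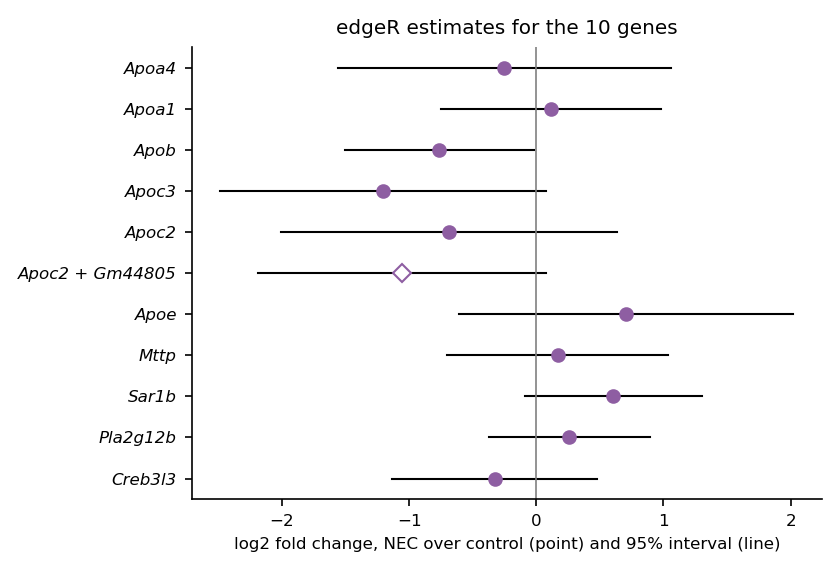
Log2 fold change of NEC over control from edgeR for each of the 10 genes, with its 95% interval. Every interval but that of Apob spans 0, and that of Apob ends at -0.017.

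Apob, the scaffold of the particle, was the 1 gene of 10 whose groups did not overlap, against 22.4% of all genes in either direction. It had 3015, 3043 and 5066 CPM in NEC libraries, against 5472, 7434 and 5964 CPM in control libraries. NEC replicate 3 came closest, just under control replicate 1. Means were 3708 ± 1176 CPM in NEC and 6290 ± 1021 CPM in control (SD, n = 3 each), with a log2 fold change of -0.76 (95% interval -1.51 to -0.017, SE 0.32). By edgeR's quasi-likelihood test the unadjusted p was 0.046 and the adjusted p 0.309. Leaving out 1 library moved the log2 fold change between -1.05 and -0.63. Within code AG181017 the log2 difference was -0.70 over 2 libraries a group, and within AG181028, with 1 library a group, it was -0.98. Per count of the epithelial markers, Apob stood at 0.350, 0.448 and 0.597 in NEC libraries and 0.686, 0.878 and 0.835 in control libraries, also without overlap. Those markers did not all move together. Of the 8, 0 were called, 6 had log2 fold changes below 0 and 2 above 0. The groups did not overlap for the 2 above 0, Krt8 (0.41) and Krt19 (1.56). Markers of the proximal small intestine summed to 406 to 815 CPM in NEC and 1505 to 3138 CPM in control, most of it Lct, the lactase gene. These sums did not overlap either. Of the 4 that were tested 0 were called, 3 had log2 fold changes below 0 and 1, Adh6a, above 0. Groups overlapped for Gata4, Onecut2 and Adh6a. Ileum markers summed to 57.9 to 99.5 CPM in NEC and 55.7 to 168 CPM in control, with overlap. Of the 4 ileum markers tested 2 were above 0 and 2 below. Colon marker sums, given above, were also lower in NEC without overlap. All 3 colon markers tested were below 0 and 0 were called. The part of any of these lists in the Apob difference was not tested.

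Apob and Apoa4 differ in the letters before their start sites, and these upstream stretches from the RefSeq promoter table (build GRCm38.p6) are shown 5′ to 3′ on the gene's strand. A link between these letters and the levels of the genes was not tested. Capitals mark CAAAGNNC on either strand, letters that form only part of the direct-repeat elements bound by HNF4 and other nuclear receptors.
Apob, chr12:7977427-7977647, plus strand: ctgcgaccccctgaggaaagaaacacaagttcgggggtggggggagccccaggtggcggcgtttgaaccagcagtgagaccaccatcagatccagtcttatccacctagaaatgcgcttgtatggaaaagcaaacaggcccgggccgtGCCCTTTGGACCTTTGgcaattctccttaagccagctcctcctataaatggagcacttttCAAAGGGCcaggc
Apoa4, chr9:46240594-46240695, plus strand: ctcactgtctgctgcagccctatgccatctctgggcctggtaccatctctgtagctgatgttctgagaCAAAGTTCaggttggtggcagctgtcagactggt
Apob held 3 matches, of which 2 lie side by side on the opposite strand, and the most distal began 102 bases before the RefSeq start. Apoa4 held 1 match, 182 bases before its RefSeq start. The stretches are printed only up to the GENCODE M21 start, so 221 bases are shown for Apob and 102 for Apoa4, of the 250 searched. Promoter windows were found for 9 of the 10 genes, all but Apoc3, and the letters CAAAGNNC occurred within 250 bases upstream of a start in 4 of them, Apob, Apoa4, Apoc2 and Creb3l3. The same letters occurred in 15.4% of 32851 promoter windows of that length. That share counts single windows, while a gene counted with a match in any of its windows. Creb3l3 had 2 RefSeq starts and Apoe 3, so the shares are not of the same unit. A match describes the sequence, not a bound site.

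The Apob transcript is also edited in the intestine, where the APOBEC1 enzyme turns the first base of a glutamine codon into U and so makes the stop that gives the short, intestinal form of apoB. The letters around that codon lie in exon 26 of 29 of the GENCODE M21 transcript, at codon 2179 of 4505, with the edited base at position 8008054 and the codon in capitals.
Apob editing site, chr12:8008048-8008077, plus strand, GRCm38: gcgataCAAtttgatcagtatattaaagat
Gene counts do not separate edited from unedited transcripts. Apobec1 had 59.6, 37.8 and 89.3 CPM in NEC libraries, against 36.3, 33.6 and 44.7 CPM in control libraries. NEC replicate 2 lay within the control range, and the log2 fold change was 0.70 (SE 0.33, edgeR adjusted p = 0.364). A1cf, which encodes the RNA-binding partner of APOBEC1, averaged 13.8 ± 9.18 CPM in NEC and 29.1 ± 9.30 CPM in control, with a log2 fold change of -1.08 and overlapping groups.

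Apoa4 was the most abundant of the 10 genes and its level varied more between replicates than between groups. It had 70593, 28758 and 89704 CPM in NEC libraries and 85741, 33708 and 105393 CPM in control libraries. In each group replicate 2 was lowest and replicate 3 highest, and replicate numbers do not pair the libraries by any label. Means were 63018 ± 31171 CPM in NEC and 74947 ± 37041 CPM in control, for a log2 fold change of -0.25 (95% interval -1.56 to 1.06, SE 0.56, edgeR adjusted p = 0.891). Without NEC replicate 2 or control replicate 3 the log2 fold change was 0.087 and 0.068, on the other side of 0. The antisense gene Gm10680 overlaps Apoa4 exons and had 192, 24.7 and 119 CPM in NEC libraries and 200.1, 6.70 and 261 CPM in control libraries, far below Apoa4. Since the strand setting is not stated, those counts and Apoa4 counts cannot be told apart.

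Apoa1, the main protein of high-density lipoproteins and a surface protein of new chylomicrons, had 23997, 23954 and 43851 CPM in NEC libraries, against 34390, 27463 and 22838 CPM in control libraries. NEC replicate 3 was the highest of the 6 libraries and the other 2 NEC libraries lay inside the control range. The means were 30601 ± 11475 CPM in NEC and 28230 ± 5814 CPM in control, which is a log2 fold change of 0.12 (95% interval -0.75 to 0.98, SE 0.37, edgeR adjusted p = 0.928). Without NEC replicate 3 it was -0.23, and without control replicate 3 it was -0.031.

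**Figure D3:**
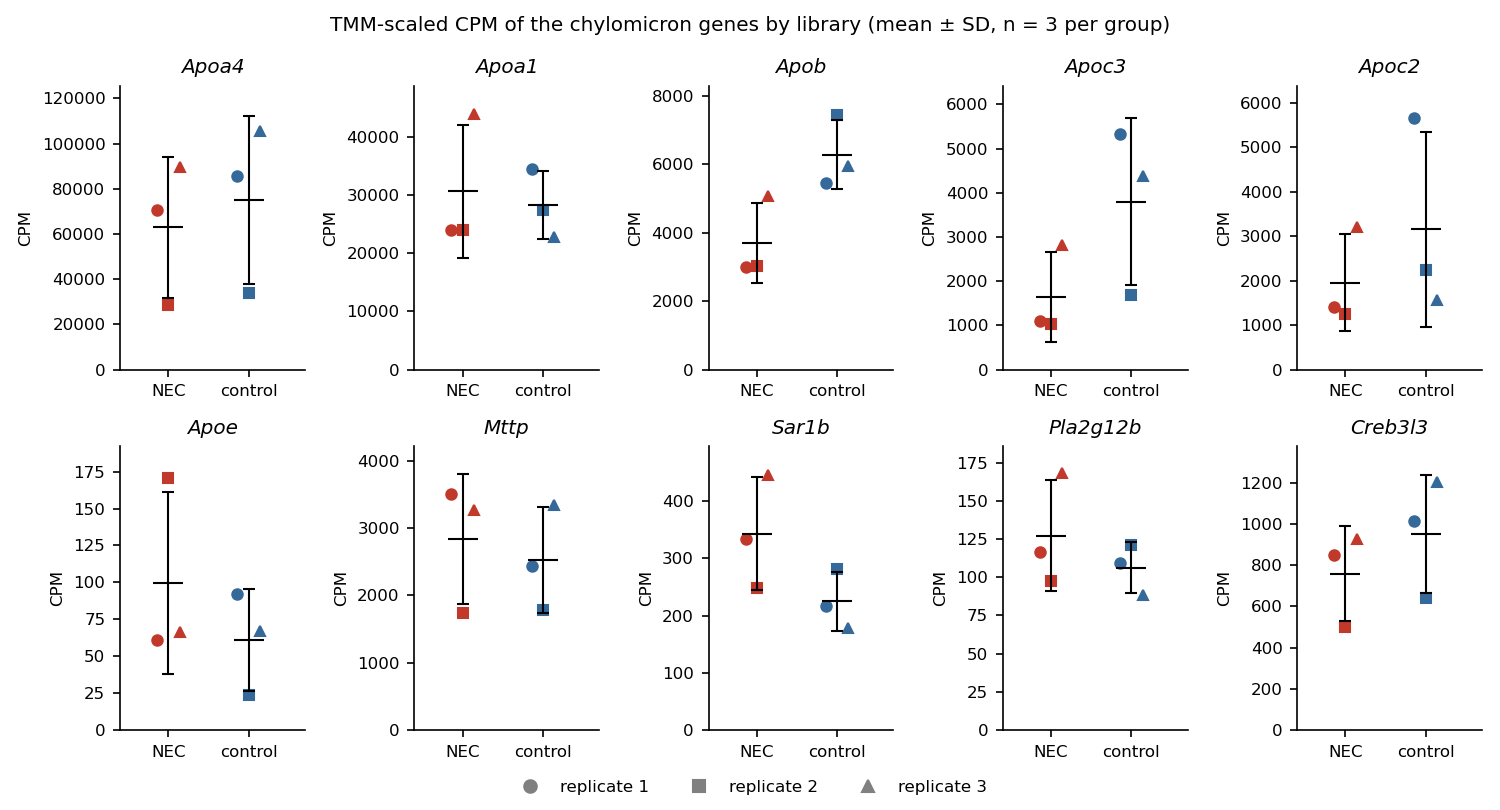
Level of each of the 10 genes in CPM (linear axes from 0), with 3 NEC libraries on the left and 3 control libraries on the right of each panel, points for libraries and bars for mean and SD. The groups of Apob do not overlap, while those of the other 9 genes do.

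Apoc3, the inhibitor of lipolysis, had the lowest fold change of the 10 genes. It stood at 1098, 1030 and 2814 CPM in NEC libraries and 5324, 1681 and 4379 CPM in control libraries. NEC replicate 3 lay above control replicate 2, so the groups overlapped. Means were 1647 ± 1011 CPM in NEC and 3795 ± 1890 CPM in control, with a log2 fold change of -1.20 (95% interval -2.49 to 0.077, SE 0.55, edgeR adjusted p = 0.349). Leaving out 1 library gave values between -1.83 and -0.88. The log2 difference was -0.81 within code AG181017 and -2.00 within AG181028.

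Apoc2, the lipase activator, had 1415, 1245 and 3218 CPM in NEC libraries, against 5668, 2235 and 1565 CPM in control libraries. Control replicate 1 was highest, and control replicates 2 and 3 lay within the NEC range. The log2 fold change was -0.69 (SE 0.57, edgeR adjusted p = 0.626), and without control replicate 1 it was 0.042. Control replicate 3 is also the only library in which Gm44805, an annotated gene on the same strand that shares exons with Apoc2, had counts above a trace. Gm44805 stood at 2771 CPM there, against at most 0.0144 CPM in NEC libraries and at most 0.0545 CPM in the other 2 control libraries. With the counts of both genes added, an alternative chosen after seeing the data, levels were 1414, 1245 and 3217 CPM in NEC libraries and 5665, 2234 and 4334 CPM in control libraries. That sum averaged 1959 ± 1093 CPM in NEC and 4078 ± 1730 CPM in control, with a log2 fold change of -1.06 (95% interval -2.19 to 0.075, SE 0.49, edgeR adjusted p = 0.352), and NEC replicate 3 still lay above control replicate 2.

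The Apoc2 window is shown because it holds both sets of letters searched, with CAAAGNNC in capitals.
Apoc2, chr7:19677942-19678191, minus strand: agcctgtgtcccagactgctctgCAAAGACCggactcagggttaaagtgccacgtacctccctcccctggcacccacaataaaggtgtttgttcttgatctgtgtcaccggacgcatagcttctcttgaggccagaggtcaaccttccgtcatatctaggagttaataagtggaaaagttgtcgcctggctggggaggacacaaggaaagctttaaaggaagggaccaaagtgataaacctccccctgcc
Its second match, TGACG, part of the element bound by CREB-type factors such as CREB3L3, lies on the opposite strand, begins 103 bases before the start and is in lower case here. TGACG, searched on both strands, occurred in the windows of 3 of the genes, Apoc2, Mttp and Creb3l3, and in 17.8% of all windows. Here too genes are set beside single windows.

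Apoe was the least abundant of the 10 genes per length in both groups. Its level was 60.8, 170.6 and 66.7 CPM in NEC libraries and 92.1, 23.7 and 66.9 CPM in control libraries. NEC replicate 2 was highest, control replicate 2 lowest, and the other 4 libraries lay between them, with a log2 fold change of 0.71 (SE 0.57, edgeR adjusted p = 0.614). Without NEC replicate 2 the log2 fold change was 0.060. Macrophages and stromal cells also make apoE. Smooth muscle and fibroblast markers summed to 1108, 3977 and 2066 CPM in NEC libraries and 2221, 2183 and 1225 CPM in control libraries, with their highest sum also in NEC replicate 2. All 9 were detected in every library and 0 of 9 were called. All 8 macrophage markers were tested, 7 of them had log2 fold changes above 0, as Apoe did, and 0 were called. Their sum was 217 to 310 CPM in NEC and 318 to 400.4 CPM in control, and its largest part was Csf1r, the 1 marker below 0, at 130 ± 22.4 CPM in NEC and 278 ± 37.7 CPM in control. Cd68 averaged 26.5 ± 0.480 CPM in NEC and 10.7 ± 2.46 CPM in control, and C1qb averaged 24.5 ± 10.9 CPM in NEC and 13.2 ± 2.47 CPM in control. The part of these cells in the Apoe levels was not tested.

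Mttp, the lipid transfer protein, had 3509, 1735 and 3274 CPM in NEC libraries, against 2440, 1785 and 3351 CPM in control libraries. Replicate 2 was again low in both groups, and the groups overlapped fully. The log2 fold change was 0.17 (95% interval -0.70 to 1.04, SE 0.37, edgeR adjusted p = 0.888), and it was -0.014 without NEC replicate 1 and -0.030 without control replicate 2. Sar1b, the vesicle GTPase, had 334, 249 and 445 CPM in NEC libraries and 216, 281 and 179 CPM in control libraries. NEC replicates 1 and 3 exceeded every control library and NEC replicate 2 did not. Sar1b averaged 343 ± 98.6 CPM in NEC and 225 ± 51.7 CPM in control (log2 fold change 0.61, 95% interval -0.090 to 1.30, SE 0.30, edgeR adjusted p = 0.385), and its value stayed between 0.38 and 0.79 when 1 library was left out.

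Pla2g12b encodes a catalytically inactive relative of secreted phospholipases A2 that in mice helps load lipid onto apoB particles. It had 116, 97.3 and 168 CPM in NEC libraries, against 109, 121 and 88.1 CPM in control libraries. The groups overlapped, with a log2 fold change of 0.26 (SE 0.27, edgeR adjusted p = 0.713). Creb3l3 encodes a membrane-bound factor of the liver and small intestine that is released by cleavage and in mice activates Apoa4, Apoc2 and other lipid genes. Its level was 851, 499 and 928 CPM in NEC libraries and 1012, 641 and 1203 CPM in control libraries. In both groups replicate 2 was lowest, as for Apoa4, and the groups overlapped (log2 fold change -0.33, 95% interval -1.13 to 0.48, SE 0.35, edgeR adjusted p = 0.716). Leaving out 1 library gave values between -0.55 and -0.11 for Creb3l3. Counts measure its mRNA and not the cleaved factor.

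On the per-length TPM scale, levels in NEC ran in the order Apoa4, Apoa1, Apoc2, Apoc3, Mttp, Sar1b, Apob, Creb3l3, Pla2g12b and Apoe. In control the order was Apoa4, Apoa1, Apoc2, Apoc3, Apob, Mttp, Creb3l3, Sar1b, Pla2g12b and Apoe. Apoa4 averaged 73311 ± 30079 TPM in NEC and 88055 ± 47904 TPM in control, and Apoe averaged 106 ± 76.7 TPM in NEC and 59.6 ± 32.2 TPM in control. Neighbours in the NEC order whose libraries overlapped were Apoa4 with Apoa1, Apoc2 with Apoc3, Sar1b with Apob, and Apob with Creb3l3. In the control order the overlapping neighbours were Apoa4 with Apoa1, Apoc2 with Apoc3, Apob with Mttp, Mttp with Creb3l3, and Creb3l3 with Sar1b. Apob averaged 569 ± 95.1 TPM in NEC and 952 ± 174 TPM in control, against 585 ± 91.6 TPM and 375 ± 76.3 TPM for Sar1b. All TPM levels rest on the summed exon length of each gene.

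Ratios of counts between 2 of the genes within a library do not depend on the scaling between libraries, and 5 were compared. The Mttp to Apob ratio was 1.16, 0.570 and 0.646 in NEC libraries, against 0.446, 0.240 and 0.562 in control libraries. Every NEC library lay above every control library, though NEC replicate 2 and control replicate 3 nearly met. The mean log2 ratio was higher by 0.94 in NEC, with a two-sided exact permutation p of 0.1, the smallest that 3 against 3 allows, and 0.25 adjusted over the 5 ratios. The Apoc3 to Apoa4 ratio was 0.0156, 0.0358 and 0.0314 in NEC libraries and 0.0621, 0.0499 and 0.0416 in control libraries. All 3 NEC libraries lay below all 3 control libraries, with a log2 difference of -0.96 and the same exact permutation p of 0.1, 0.25 adjusted. Apoa4 to Apoa1 (log2 difference -0.32, exact permutation p = 0.7), Apoa4 to Apob (0.55, p = 0.5) and Creb3l3 to Apoa4 (-0.081, p = 0.7) had overlapping groups. The Creb3l3 to Apoa4 ratio kept within 0.0103 to 0.0174 in NEC and 0.0114 to 0.0190 in control.

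**Figure D4:**
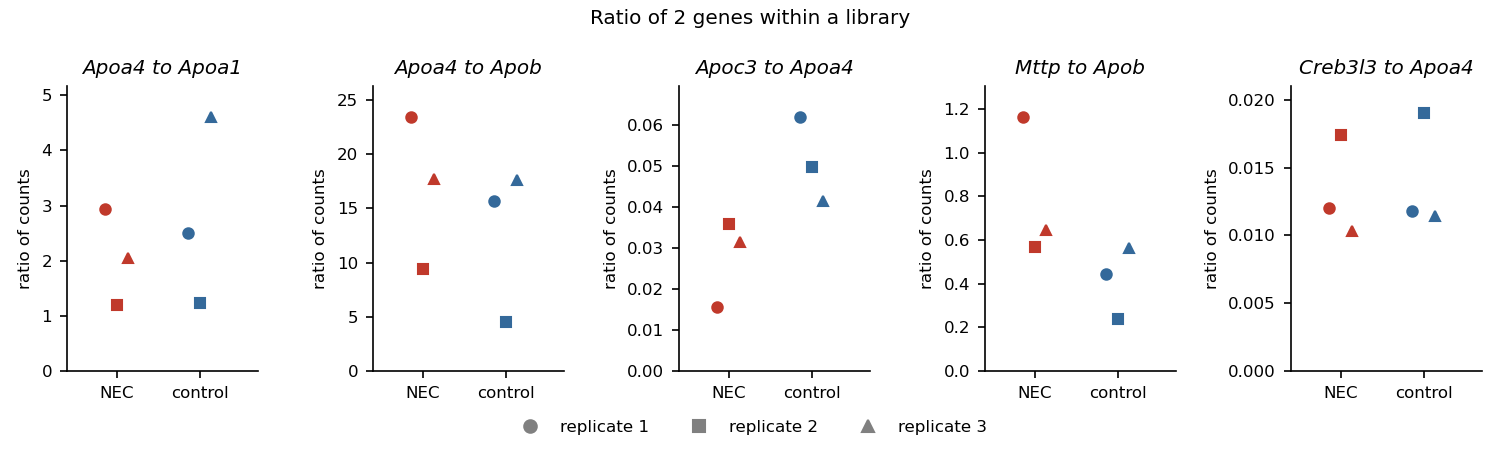
Ratio of counts between pairs of the genes in each library (linear axes from 0), 3 NEC libraries on the left and 3 control libraries on the right of each panel. Mttp to Apob is higher and Apoc3 to Apoa4 lower in every NEC library than in every control library, and the other ratios overlap.

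By the root mean square difference of centred log2 CPM over the 6 libraries, the genes whose pattern was most like that of Apoa4 were Nudt13 (0.154), Slc25a22 (0.174) and Bcl3 (0.174). Most like Apob were Cldn12 (0.147), a tight junction gene, Rcan1 (0.159) and Zfp994 (0.161). Cldn12 had 16.3, 19.1 and 23.1 CPM in NEC libraries and 30.7, 36.2 and 31.7 CPM in control libraries, without overlap, as followed from the choice. Creb3l3 was matched most closely by Tspan13 (0.066), D17H6S53E (0.068) and Rmdn3 (0.072). The 6 libraries share their depth and scaling with the genes they were matched on, so these are descriptions only.

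Other genes of the pathway were read from 6 lists, and 3 of their genes were called. Of 12 other apolipoproteins and lipoprotein-bound proteins tested, 0 were called by edgeR, DESeq2 or limma-voom, with a median log2 fold change of 0.003. An unadjusted edgeR p below 0.05 was found for 2 of the 12, against 15.6% of all genes. The groups did not overlap, with NEC higher, for 3 of the 12, against 10.8% of all genes, namely Apod, Apom and Clu. Apod, a lipocalin, averaged 0.828 ± 0.606 CPM in NEC and 0.224 ± 0.101 CPM in control. Apom, which carries sphingosine phosphate, averaged 7.04 ± 0.928 CPM in NEC and 3.84 ± 1.64 CPM in control. Apoa2 and Apoh, both mainly of liver, were highest in the libraries that held Alb. The hepatocyte markers Fga, Fgb, Fgg and Ttr were lowest in control replicate 3, which held Alb. Apoa2 was at 4.63, 0.745 and 0.862 CPM in NEC libraries and 0.940, 1.14 and 5.10 CPM in control libraries. Of the 11 hepatocyte markers tested 9 had log2 fold changes below 0 and 2 above 0. Only 1 was called, Trf, higher in NEC, against 0.261% of all genes called higher. The part of liver RNA in the Apoa2 and Apoh levels was not tested.

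Genes of chylomicron assembly and transport gave 0 calls among 27 tested, also by DESeq2 and limma-voom, with a median log2 fold change of -0.012. Of the 27, 1 had an unadjusted edgeR p below 0.05, against 15.6% of all genes. P4hb, the second subunit of the transfer protein, had 4532, 2815 and 4833 CPM in NEC libraries and 4263, 2785 and 4491 CPM in control libraries, with a log2 fold change of 0.078. Replicate 2 was again the lowest in both groups. Surf4, the cargo receptor that exports lipoproteins, had a log2 fold change of 0.19, and Preb, which activates SAR1 proteins, of 0.20. Sar1a, the close paralog of Sar1b, stood at 71.9, 108 and 93.8 CPM in NEC libraries and 50.4, 87.1 and 23.3 CPM in control libraries, with overlapping groups and a log2 fold change of 0.77. Tm6sf2, a membrane protein needed for full lipidation of apoB particles, had a log2 fold change of -0.55. Fabp1, the liver-type fatty acid binding protein also made by enterocytes, had 372, 352 and 1621 CPM in NEC libraries, against 3850, 1148 and 3259 CPM in control libraries. Only NEC replicate 3 reached into the control range, and the log2 fold change was -1.82.

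Among genes of lipolysis and receptors, which act on the particle after its release, 2 of 16 tested were called, both higher in NEC, against 0.261% of all genes called higher. Gpihbp1, which holds lipoprotein lipase on the capillary wall, had 15.4, 11.1 and 12.0 CPM in NEC libraries and 3.35, 2.61 and 3.93 CPM in control libraries. All NEC libraries lay above all control libraries, and Gpihbp1 rose (log2 fold change 1.96, SE 0.31, edgeR adjusted p = 0.0428). Sdc1, the heparan sulfate proteoglycan that binds remnants in liver, averaged 108 ± 7.44 CPM in NEC and 43.3 ± 5.10 CPM in control and rose (log2 fold change 1.32, SE 0.21, edgeR adjusted p = 0.0457). Vldlr, the receptor for very-low-density lipoproteins, had 44.8, 14.8 and 30.0 CPM in NEC libraries, against 1.91, 5.26 and 2.58 CPM in control libraries. Its groups were apart, but it did not pass (log2 fold change 3.20, SE 0.55, edgeR adjusted p = 0.0527). Vldlr was called in 5 of 20 alternatives: library-size scaling (adjusted p = 0.0495), epithelial scaling (0.0393), no low-count filter (0.0244), a stricter filter (0.0466) and DESeq2 (3.54e-07). The list had a median log2 fold change of 1.01, which was 0.553 without NEC replicate 1 and 0.708 within the AG181017 libraries. This list, like the others, was chosen with earlier results of these data known, so its shares are descriptions and not a test. An unadjusted p below 0.05 was found for 10 of 16 genes, against 15.6% of all genes. Without overlap, 6 genes were higher in NEC, against 10.8% of all genes, and 3 were lower, against 11.6%. Both calls ended when any 1 library was left out, with adjusted p values from 0.0597 to 0.256 for Gpihbp1 and from 0.0763 to 0.275 for Sdc1. Their log2 fold changes stayed between 1.80 and 2.10 for Gpihbp1 and between 1.22 and 1.37 for Sdc1 in those fits. They ended as well within the 4 AG181017 libraries (adjusted p = 0.137 for Gpihbp1 and 0.144 for Sdc1). DESeq2 called 5 genes of the list higher, against 3.62% of all genes, and 1 lower, against 3.93%.

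Transcription factors and regulators of apolipoprotein genes gave 1 call among 25 tested, lower in NEC, against 0.443% of all genes called lower. That gene, Nr0b2, encodes the small heterodimer partner, a repressor induced by bile acids through FXR, and it fell in NEC (edgeR log2 fold change -6.66, SE 0.55, adjusted p = 0.015). Nr0b2 stood at 0.147, 0.113 and 0.316 CPM in NEC libraries and 24.9, 12.7 and 20.1 CPM in control libraries. The call ended without control replicate 1 (adjusted p = 0.091) and within the AG181017 libraries (0.0648). Hnf4a, a main activator of Apob, Mttp and the Apoa1, Apoc3 and Apoa4 cluster, had 360.2, 507 and 379 CPM in NEC libraries and 655, 587 and 606 CPM in control libraries. Its groups were apart, but it did not pass (log2 fold change -0.57, edgeR adjusted p = 0.310). Hnf4g, its intestinal relative, ranged widely, with 129, 17.1 and 37.2 CPM in NEC libraries and 28.8, 49.6 and 110 CPM in control libraries. Prdm1 (log2 fold change -1.04, edgeR adjusted p = 0.0688), known for maintaining the suckling type of enterocyte, and Nr1h3 (-1.08, 0.0838), the oxysterol receptor, did not pass either. Ppara, the fatty acid receptor, averaged 19.8 ± 17.6 CPM in NEC and 6.33 ± 5.89 CPM in control with overlapping groups. In all, 6 of the 25 were lower in NEC without overlap, against 11.6% of all genes, the median log2 fold change was -0.038, and DESeq2 called 3 lower, against 3.93% of all genes.

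The last 2 lists gave 0 calls by edgeR, DESeq2 and limma-voom. Of 11 tested genes of the CREB3 family, its proteases and liver targets of CREB3L3, 3 had an unadjusted p below 0.05, against 15.6% of all genes. Without overlap, 1 was higher in NEC, against 10.8% of all genes, and 2 were lower, against 11.6%. Insig2, which retains SREBP factors in the endoplasmic reticulum, averaged 28.9 ± 3.57 CPM in NEC and 43.6 ± 1.76 CPM in control, without overlap. Creb3l1 averaged 8.70 ± 0.641 CPM in NEC and 4.82 ± 1.60 CPM in control, also without overlap, and Creb3l2 had a log2 fold change of -0.78 with overlapping groups. Fgf21, a liver target of CREB3L3, was at 0 in every library. Of 5 tested phospholipases A2 related to Pla2g12b, 0 had an unadjusted p below 0.05, against 15.6% of all genes. Their median log2 fold change was 0.37.

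**Figure D5:**
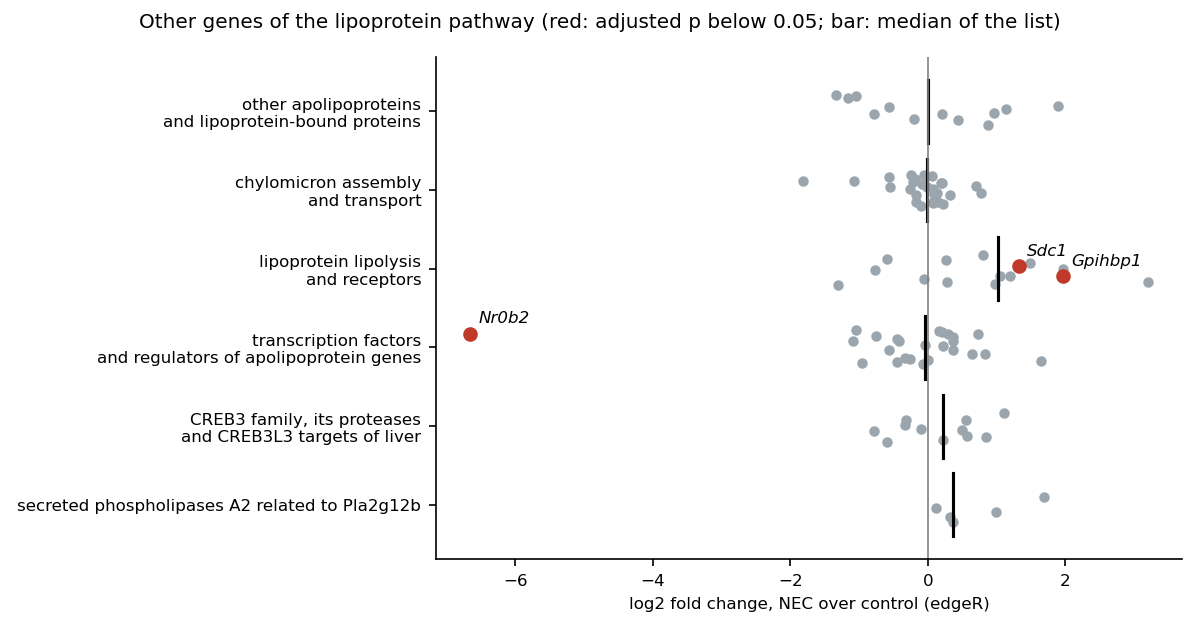
Log2 fold change of NEC over control from edgeR for each tested gene of 6 lists of the lipoprotein pathway, one row a list, with a bar at each list's median. The 3 called genes are in red: Sdc1 and Gpihbp1 higher in NEC, and Nr0b2, at -6.66, lower.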

How the data were processed

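The authors deposited whole-number counts per gene of the 6 libraries in 1 table, and the submitters' processing notes name the build mm10. Aligner, counter, annotation and strand use: not given in the sources used here. Of 54446 gene IDs, 54409 matched a GENCODE M21 symbol and 37 did not, and 0 columns were left unused. Counts from 1 to 40 were multiples of 4 in 33.7% to 35.9% of cases, so a count may not be an independent fragment. The labels do not say that libraries came from separate animals, and p-values reflect only the spread among these libraries, which may be technical. No 2 libraries agreed within sampling noise.

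Genes were filtered with edgeR 4.0.16 filterByExpr (minimum count 10; 19176 genes) in R 4.3.3, scaled by TMM, and tested with the quasi-likelihood F test (robust) and Benjamini-Hochberg adjustment, called at an adjusted p below 0.05. Values after ± are SD over 3 libraries. The members, lists and tests were chosen with earlier results of these data known. Named genes are the 10 members, in each list the called genes and the 3 of smallest unadjusted p, fixed partner genes, and for Apoa4, Apob and Creb3l3 the 3 nearest genes of mean CPM at least 5. Gm10680, Gm44805, Apoa2, Apoh, Csf1r, Cd68, C1qb, Cps1, Ttr, Trf, Alb, Lct, Gata4, Onecut2, Adh6a and Fgf21 were named after their values were seen. So were Ahsg, Hpx, Mup3, Fga, Fgb, Fgg, Krt8 and Krt19. Alternatives were other scalings and filters, DESeq2 1.42.0, limma-voom (limma 3.58.1), a block, the code prefix, scaling to epithelial markers and each library left out. On counts simulated for 18647 genes the test recovered 2%, 44%, 66% and 82% of genes with log2 changes of 1, 2, 3 and 4, and 6 of 103 calls were unchanged genes. Gene positions are those of GENCODE M21, and promoter windows hold 250 bases before a RefSeq start.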

Additional observations from a re-analysis of the deposited data

How the results depend on the processing

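Over 20 alternatives, 0 of the 10 members were called, with a lowest adjusted p of 0.148 (Apob, DESeq2), and 6 of 10 kept their sign throughout. The 7 changes of sign among members came with 1 library left out. The ranges were -0.030 to 0.42 for Mttp, -0.60 to 0.087 for Apoa4, -0.23 to 0.28 for Apoa1 and -1.24 to 0.042 for Apoc2. For the log2 ratios they were -0.81 to 0.144 for Apoa4 to Apoa1, -0.078 to 0.916 for Apoa4 to Apob and -0.29 to 0.156 for Creb3l3 to Apoa4. Other log2 fold changes that changed sign ran from -0.110 to 0.277 for P4hb, -0.127 to 0.655 for Preb, -0.043 to 0.41 for Surf4, -1.21 to 0.648 for Hnf4g, -0.62 to 0.042 for Nudt13, -0.41 to 0.191 for Slc25a22 and -0.43 to 0.00673 for D17H6S53E. Slc25a22 was at 0.043 within the 4 AG181017 libraries. List medians with 1 library left out ran from -0.246 to 0.831 for other apolipoproteins, -0.425 to 0.129 for regulators, -0.112 to 0.334 for the CREB3 list and 0.195 to 0.851 for phospholipases. The count of genes called, 135, was 247 with no low-count filter, 1448 with DESeq2, 243 with the code prefix as a term and 25 within the AG181017 libraries. With 1 library left out it ran from 0 to 106: leaving out control replicate 1 gave 0, NEC replicate 3 gave 3, control replicate 3 gave 25 and NEC replicate 1 gave 34. The cause was not tested. With the replicate number as a block 54 genes were called, 0 of them members. Deviations of same-numbered libraries correlated at -0.14, 0.27 and -0.0070 and not every library correlated best with its own number, so the numbers were not taken to pair them. The calls of Gpihbp1 and Sdc1 ended under the block (adjusted p = 0.0775 and 0.0875) and with epithelial scaling (0.0636 for both), and that of Sdc1 with library-size scaling (0.055). Code AG181028 has 1 library a group and gives no test.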
